A study of Mus musculus with 9 samples.

Results

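Wnt ligands, their receptors and the proteins that pass on or damp their signal were followed by gene symbol on the arrays of mNS-5 neural stem cells (NSCs) depleted of Med12. Members were the genes whose annotated symbol names a numbered Wnt, Fzd, Sfrp, Dkk or Dvl, a Dkk-like or a Tcf7-type gene, together with Lrp5, Lrp6, Ctnnb1, Lef1, Axin1, Axin2, Apc, Gsk3b, Wif1, Nkd1, Rnf43, Znrf3 and Porcn. They were 57 genes with 110 probes, of 19057 named genes and 45281 probes on the Illumina MouseWG-6 BeadChip. A probe above the background limit of 16.9 intensity units on at least 3 arrays was found for 35 of the 57 genes, and these 35 were tested. The other 22 have no level here, and counts below cover the 35 that were measured. The name pattern also caught Fzd10os, a long noncoding RNA named for lying opposite Fzd10, which is counted as a member but encodes no receptor.

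The study asked how Med12, a subunit of the Mediator kinase module that links transcription factors to RNA polymerase II, shapes gene expression in NSCs. mNS-5 is a clonal adherent NSC line derived from mouse embryonic stem cells, so every array came from 1 clone. All cultures were kept on gelatin with FGF-2 at 10 ng/ml and EGF at 10 ng/ml, infected with a lentivirus, selected with puromycin at 600 ng/ml from the day after infection and harvested 5.5 days after it. The 3 NS control arrays carried a non-silencing shRNA and the 6 Med12 knockdown arrays a Med12 shRNA, for which the methods list 1 construct. The labels place the arrays in sets 1, 2 and 3, each with 1 NS control array and 2 knockdown arrays, called here first and second. The methods describe biological replicates, 3 for each condition, and the sources do not say what the second array of a set is. All 6 knockdown arrays were used as separate samples, so p-values measure the spread between arrays, which may in part be technical. In bulk RNA such as this, fewer cells of a type and less RNA per cell cannot be told apart.

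Wnts are secreted lipid-modified proteins that bind Frizzled receptors, with Lrp5 or Lrp6 as coreceptor, and through Dishevelled stop the Axin, Apc and Gsk3b complex from marking beta-catenin for destruction. Beta-catenin then enters the nucleus and works with the Tcf and Lef factors on target genes, which include feedback inhibitors of the pathway such as Axin2 and Nkd1. Other Wnts, Wnt5a among them, act through Frizzled and Dishevelled on cell polarity and movement without beta-catenin, and in the neural tube and cortex the pathway is known for its part in patterning and in the balance of progenitor growth and differentiation.

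The promoters shown are those of the members that rose, where a RefSeq window was matched, and that of Wnt5b, the measured ligand whose window holds the core site of Tcf and Lef factors. RefSeq windows of 300 bases on GRCm38.p6 were found for 38 of the 57 members, 47 windows in all. Each sequence gives the 250 bases before the annotated start, read 5′ to 3′ on the gene's strand. Capitals mark the Tcf/Lef core CTTTGAT or its reverse complement ATCAAAG, and the GC box core CCGCCC or its reverse complement GGGCGG. These motifs do not overlap each other, and overlapping GC boxes were each counted.
Wnt4 promoter, chr4:137277385-137277634, plus strand: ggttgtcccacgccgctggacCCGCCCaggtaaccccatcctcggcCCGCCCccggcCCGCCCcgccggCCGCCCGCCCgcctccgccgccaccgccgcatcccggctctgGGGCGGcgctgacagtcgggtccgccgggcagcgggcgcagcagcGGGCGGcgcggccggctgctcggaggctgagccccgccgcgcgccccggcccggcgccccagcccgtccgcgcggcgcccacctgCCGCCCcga
Fzd5 promoter, chr1:64737751-64738000, minus strand: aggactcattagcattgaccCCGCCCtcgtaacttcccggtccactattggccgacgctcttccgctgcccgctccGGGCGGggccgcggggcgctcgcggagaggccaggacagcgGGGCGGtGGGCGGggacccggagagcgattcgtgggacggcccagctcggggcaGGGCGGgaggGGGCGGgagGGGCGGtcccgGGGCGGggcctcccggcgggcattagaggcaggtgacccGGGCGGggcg
Fzd10 promoter, chr5:128600856-128601105, plus strand: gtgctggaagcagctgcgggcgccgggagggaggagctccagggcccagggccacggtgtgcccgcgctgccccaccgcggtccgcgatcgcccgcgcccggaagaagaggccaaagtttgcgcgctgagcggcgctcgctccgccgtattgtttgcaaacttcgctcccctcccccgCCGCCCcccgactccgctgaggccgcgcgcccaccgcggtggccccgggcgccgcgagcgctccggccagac
Wnt5b promoter, chr6:119449387-119449636, minus strand: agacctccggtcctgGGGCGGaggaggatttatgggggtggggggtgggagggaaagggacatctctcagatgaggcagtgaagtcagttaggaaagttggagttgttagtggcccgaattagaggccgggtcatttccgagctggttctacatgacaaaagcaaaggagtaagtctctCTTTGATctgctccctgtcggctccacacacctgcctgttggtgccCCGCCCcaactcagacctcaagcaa
The Tcf/Lef core stood in 2 of the 47 member windows, 1 of the 3 of Wnt5b and 1 of the 2 of Wnt11, and in 3.73% of 32851 promoter windows of the same length. It was not among the letters of the windows of Wnt4, Fzd5 or Fzd10. The printed stretch held 8 GC boxes for Wnt4, 9 for Fzd5 and 1 for Fzd10. A GC box core stood in 33 of the 47 member windows (70.2%) and in 35.7% of all windows, a count that was chosen after the sequences had been seen and that says nothing on binding. Lef1 had 4 windows, which are not shown, and windows for Sfrp1 and Lrp5 were not matched.

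The arrays had been background subtracted and quantile normalized by the authors, with a median intensity of 8.9 or 9.0 on each. Med12, the target of the shRNA, lay between 267 and 356 on the NS control arrays and between 112 and 176 on the knockdown arrays, a log2 fold change of -1.26 (standard error, SE, 0.18, limma adjusted p = 0.00276). Of 12 NSC markers, 10 were above background, among them Nes and Sox2, and the summed intensity of the 11 with a probe was 34750 to 37680 in NS control and 33940 to 37830 in knockdown cells. The sums in this paragraph cover every marker of a list with a probe, with values below 0 set to 0. Most of each NSC sum came from Slc1a3, at 19040 to 21660 in NS control and 21660 to 25960 in knockdown cells, and the median log2 fold change of the 10 NSC markers above background was -0.29. Hes1, a Notch effector, was the 1 of them that passed the test, with 769 to 1113 in NS control and 577 to 695 in knockdown cells. Vim, an intermediate filament of NSCs, lay between 9171 and 9755 in NS control and between 4982 and 8148 in knockdown cells (log2 fold change -0.40, adjusted p = 0.158), and Hes5, another Notch effector, between 62.8 and 309 and between 14.9 and 72.4 (log2 fold change -1.71, adjusted p = 0.0812). Pax6 was not above background. Of 7 neuron markers, Dcx, Map2 and Syp were above background, and none of the 3 passed the test (adjusted p = 0.113 to 0.346). The summed intensity of the 7 was 5499 to 6317 in NS control and 6614 to 8331 in knockdown cells. Most of that sum was Map2, while Dcx, found in young neurons, was above the limit on 1 NS control and all 6 knockdown arrays. Tubb3, Rbfox3, Stmn2 and Snap25 were not above background on at least 3 arrays. Of the oligodendrocyte markers, Cnp was above background, at 250 to 414 in NS control and 304 to 418 in knockdown cells, and Mbp, Mog and Mag were not, nor was Sox10. All 5 astrocyte markers were above background, with a summed intensity of 392 to 485 in NS control and 529 to 1045 in knockdown cells. Of these 5, Aldh1l1 alone passed the test (log2 fold change 1.04, adjusted p = 0.0400). Most of the astrocyte sum was S100b, at 90.2 to 220 in NS control and 220 to 603 in knockdown cells (adjusted p = 0.0727), and Slc1a2, at 222 to 226 and 223 to 356 (adjusted p = 0.364). Gfap was above the limit on 1 NS control and 5 knockdown arrays, and Aqp4 on 1 and 4. Of 5 fibroblast markers 3 were above background, and the summed intensity of the 5 was 45.3 to 55.1 in NS control and 47.6 to 400.5 in knockdown cells. Their highest sums came from set 1, where the matrix proteoglycan Dcn reached 138 and 353 on the knockdown arrays, against 13.5 to 42.6 on the other knockdown arrays and values below 0 on every NS control array.

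In Med12 knockdown cells 4 Wnt genes rose, the ligand Wnt4, the receptors Fzd5 and Fzd10 and the antagonist Sfrp1. The coreceptor Lrp5 and the nuclear factor Lef1 were called lower, and 29 did not pass the test. The Lef1 probe entered the test only through the NS control arrays, where it is high, so a difference was built into its choice and its call is given as a description. The test was limma on log2 intensities with Benjamini-Hochberg adjustment over all 10757 genes tested, and a gene passed where its adjusted p was 0.05 or below. The 4 of 35 that were higher make 11.4%, beside 6.56% of all genes tested, and the 2 that were lower, Lef1 among them, make 5.71%, beside 3.81%. With a change of 2-fold or more as well, 2 members were higher, Wnt4 and Sfrp1, beside 3.02% of all genes, and 0 were lower, beside 0.781%. The 6 members whose knockdown arrays all lay above every NS control array were Wnt4, Sfrp1, Fzd5, Fzd10, Apc and Tcf7l2, where 10.6% of all genes did so, and the 1 whose knockdown arrays all lay below was Lef1, beside 8.39%. Each of these shares rests on 6 members or fewer, and none is read as a property of the pathway. With the 2 knockdown arrays of each set averaged, Wnt4 (adjusted p = 0.0201), Fzd10 (0.0464) and Sfrp1 (0.0354) passed. In that fit Fzd5 (adjusted p = 0.0543), Lef1 (0.0789) and Lrp5 (0.125) did not. The median log2 fold change of the 35 was 0.12, also with Lef1 at its bound, and that of all genes was -0.0022.

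**Figure D1:**
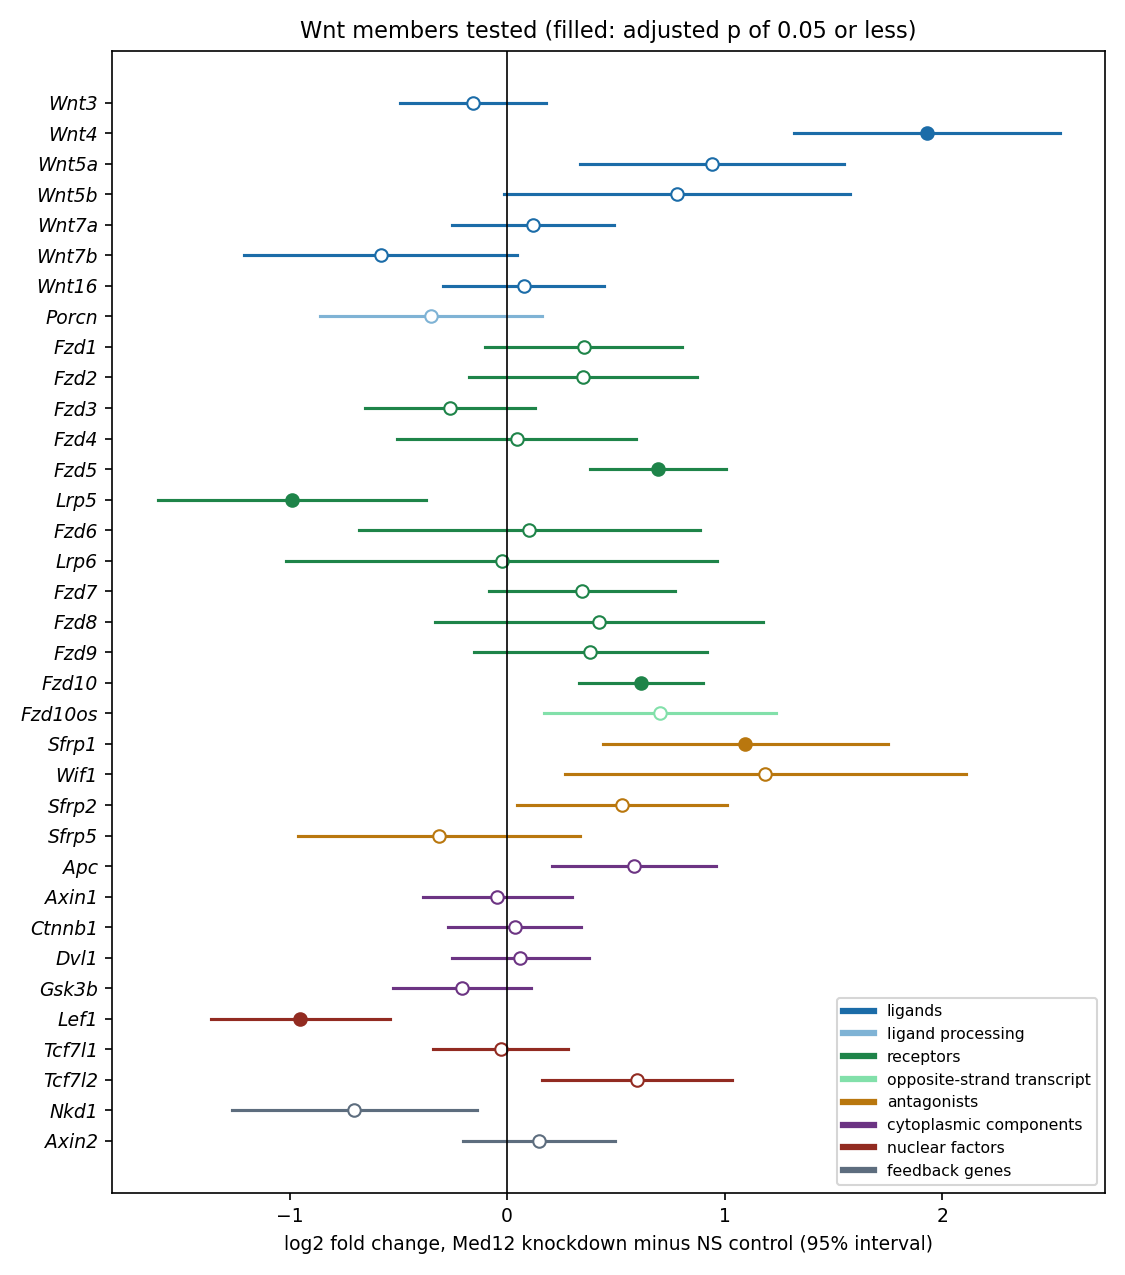
Log2 fold change of each of the 35 tested Wnt genes, Med12 knockdown minus NS control, with its 95% interval from limma as a horizontal line, coloured by role. Filled points passed at an adjusted p of 0.05 or less: Wnt4, Fzd5, Fzd10 and Sfrp1 lie to the right of 0, Lrp5 and Lef1 to the left. The Lef1 probe entered the test only through the group where it is high.

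The counts by role that follow stand beside the same 6.56% higher and 3.81% lower over all genes. Among the 19 Wnt ligands, 7 were measured, 1 rose and 6 did not pass, and the median log2 fold change of the 7 was 0.12. Wnt4, a ligand best known for its part in kidney and ovary development, had intensities of 43.3, 65.4 and 80.9 on the NS control arrays of sets 1, 2 and 3. It had 308, 188 and 167 on the first knockdown arrays of the sets and 357, 197 and 237 on the second. Every knockdown array lay above every control array, and the set 1 pair was highest where the set 1 control was lowest. The mean rose from 63.2 ± 18.9 (SD, n = 3) to 242 ± 75.2 (SD, n = 6), with a 3.81-fold change and a log2 fold change of 1.93 (SE 0.27, limma adjusted p = 0.00268). Within the sets the log2 difference was 2.94, 1.55 and 1.30. The second probe of Wnt4 gave 30.2, 42.2 and 19.8 in NS control cells and between 66.4 and 158 in knockdown cells, a log2 fold change of 1.72 (SE 0.32, adjusted p = 0.0122 over 20026 probes). Wnt4 passed in all 22 alternative settings, with a log2 fold change of 1.34 to 2.13 and an adjusted p of 3.38e-04 to 0.041. Without both set 1 knockdown arrays, which carried the highest Dcn, it was 1.68 (adjusted p = 0.00584).

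Wnt5a, a ligand that often acts without beta-catenin, had 805, 442 and 485 in NS control cells, 1400, 915 and 708 on the first and 1598, 1034 and 1005 on the second knockdown arrays. Each knockdown array lay above the control of its own set, but the lowest, at 708, lay under the set 1 control. Its log2 fold change was 0.94 (SE 0.27) and did not pass (limma adjusted p = 0.0547), though it passed without NS control 1 (log2 fold change 1.21, adjusted p = 0.0369) and without the first knockdown array of set 3 (log2 fold change 1.06, adjusted p = 0.0304). The within-set differences of Wnt5a were 0.89, 1.14 and 0.80, and the 2 other probes above background gave 0.95 and 0.51. The probe at 0.51 was above the limit on 0 NS control and 3 knockdown arrays, so it could only come out higher. Wnt5b, its close relative, had 75.6, 94.6 and 25.6 in NS control and 78.6 to 132 in knockdown cells, overlapping groups with a log2 fold change of 0.78 (adjusted p = 0.193).

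Wnt7a and Wnt7b are ligands made by neural progenitors that guide brain vessels and cortical growth. Wnt7b had 930, 881 and 704 in NS control cells, 478, 664 and 770 on the first and 286, 671 and 631 on the second knockdown arrays. All but 1 of the knockdown arrays lay below all controls, and the log2 fold change of -0.58 (SE 0.28) did not pass (limma adjusted p = 0.219). The second probe of Wnt7b had 122, 106 and 94.9 in NS control and 28.8 to 68.7 in knockdown cells with no overlap, a log2 fold change of -1.06 that did pass among the 20026 probes (adjusted p = 0.0339), and with the mean of both probes the gene passed at -0.82 (adjusted p = 0.0497). The within-set differences of its main probe were -1.33, -0.40 and -0.02, the largest in set 1. Wnt7a ranged from 1133 to 1440 in NS control and from 1068 to 1617 in knockdown cells (log2 fold change 0.12, adjusted p = 0.689). Wnt3 was above the limit on 2 NS control arrays and 1 knockdown array (log2 fold change -0.16, adjusted p = 0.547) and Wnt16 on 1 and 2 (log2 fold change 0.08, adjusted p = 0.81), so both sat at the edge of detection. Wnt1, Wnt2, Wnt2b, Wnt3a, Wnt6, Wnt8a, Wnt8b, Wnt9a, Wnt9b, Wnt10a, Wnt10b and Wnt11 had no probe above background on 3 arrays. Porcn, the enzyme that attaches the lipid to Wnts, had 287, 176 and 224 in NS control and 134 to 235 in knockdown cells, with a log2 fold change of -0.35 (adjusted p = 0.363).

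**Figure D2:**
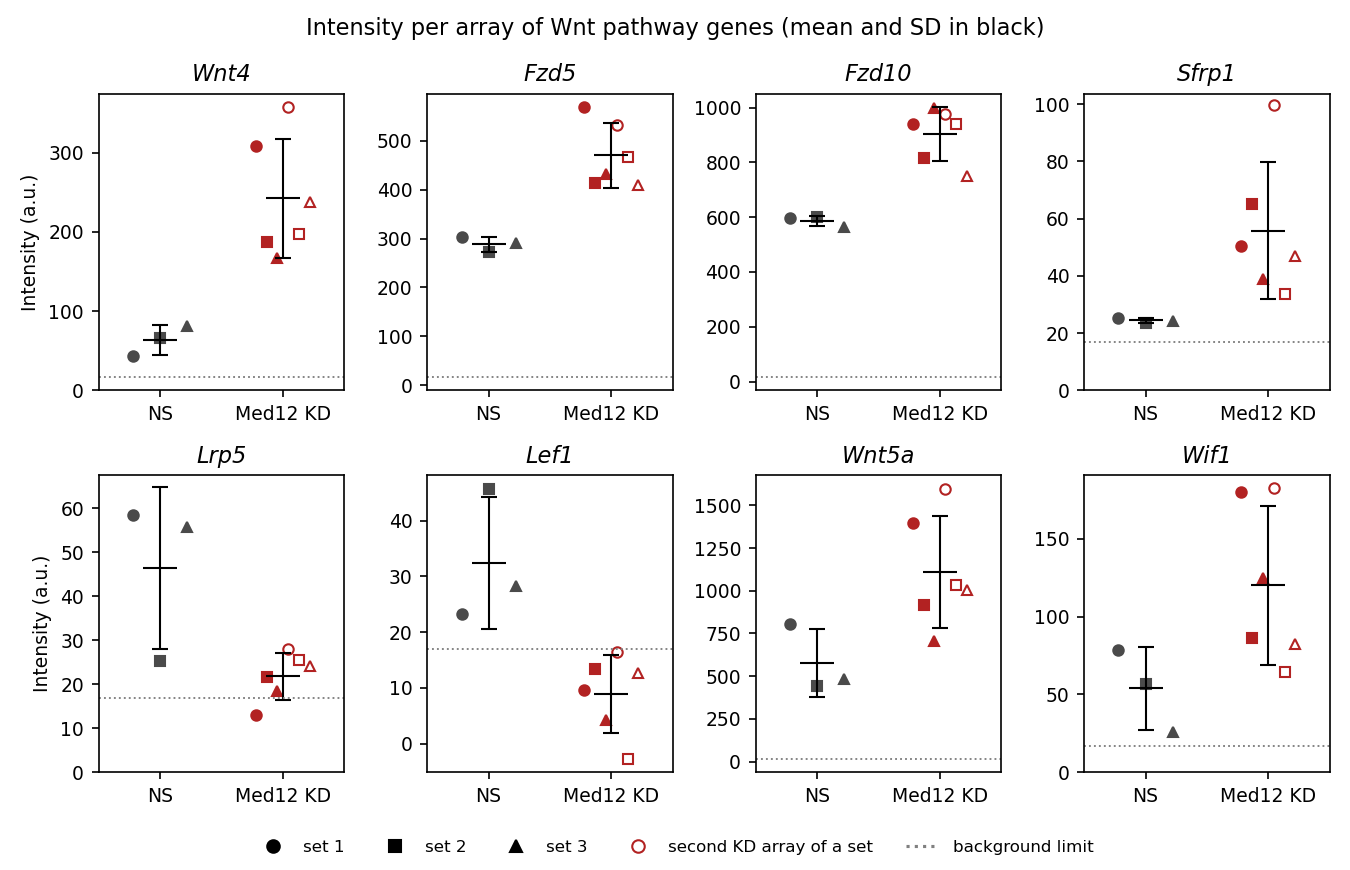
Deposited intensity on each array of 8 Wnt genes, with NS control in grey and Med12 knockdown in red, the set by symbol, second knockdown arrays as open symbols, and the group mean and SD in black. The dotted line is the background limit of 16.9. The groups do not overlap for Wnt4, Fzd5, Fzd10, Sfrp1 and Lef1 but do for Lrp5, Wnt5a and Wif1, and all 6 knockdown arrays of Lef1 lie under the limit.

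All 12 receptor genes, the 10 Frizzleds with Lrp5 and Lrp6, were measured. Fzd5 and Fzd10 rose, Lrp5 fell, 9 did not pass, and the median log2 fold change was 0.35. Fzd5, a Frizzled with a role in eye development, had 303, 272 and 292 in NS control cells, 569, 414 and 432 on the first and 533, 467 and 410 on the second knockdown arrays. The 3 controls lay within a narrow band and each knockdown array stood clear above it. The mean went from 289 ± 15.3 (SD, n = 3) to 471 ± 66.6 (SD, n = 6), with a log2 difference of 0.69 (SE 0.14, limma adjusted p = 0.0139) and within-set differences of 0.86, 0.69 and 0.53. Its dimmer probe, between 11.9 and 36.8 on all arrays, gave 0.31. Without NS control 2 the adjusted p of Fzd5 was 0.0578, with the mean of its probes the log2 fold change was 0.50 (adjusted p = 0.0760), and with the 2 knockdown arrays of each set averaged the adjusted p was 0.0543.

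Fzd10 had 596, 600 and 565 in NS control cells, 940, 814 and 999 on the first and 977, 939 and 750 on the second knockdown arrays. Here too the lowest knockdown array stood above the highest control. The mean went from 587 ± 19.2 (SD, n = 3) to 903 ± 98.7 (SD, n = 6), with a log2 difference of 0.62 (SE 0.13, limma adjusted p = 0.0157) and differences of 0.69, 0.54 and 0.62 in the 3 sets. The other probes of Fzd10 gave 0.49 and 0.78, and without NS control 3 the adjusted p was 0.0649 at a log2 fold change of 0.59. The annotated interval of Fzd10os (GRCm38.p6, chr5:128579130-128600687) lies 418 bases from the start of Fzd10, and the Fzd10 stretch printed above lies in that gap. The noncoding RNA had 52.0, 34.2 and 58.3 in NS control cells, 104, 85.6 and 58.0 on the first and 94.9, 58.7 and 69.3 on the second knockdown arrays. Its groups overlapped by a margin of 58.0 against 58.3, and its log2 fold change of 0.70 did not pass (SE 0.24, adjusted p = 0.0886).

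Lrp5, a coreceptor known for its control of bone mass, was dim. It had 58.5, 25.3 and 55.8 in NS control cells, 13.1, 21.7 and 18.5 on the first and 28.1, 25.5 and 24.1 on the second knockdown arrays. The set 2 control lay among the knockdown arrays, so the groups overlapped. The mean went from 46.5 ± 18.4 (SD, n = 3) to 21.8 ± 5.39 (SD, n = 6), with a log2 difference of -0.99 (SE 0.28, limma adjusted p = 0.0485). The call held without NS control 2 (log2 fold change -1.38, adjusted p = 0.0101) and was lost without any other single array, at an adjusted p of 0.0531 to 0.182, the highest without NS control 3. It was also lost with the knockdown arrays of each set averaged (adjusted p = 0.125). Lrp6, the other coreceptor, ranged from 1.0 to 41.6 in NS control and from 10.5 to 58.6 in knockdown cells, and its log2 fold change was -0.03 with a 95% interval of -1.01 to 0.96.

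Of the other Frizzleds, Fzd1, Fzd2, Fzd7, Fzd8 and Fzd9 had log2 fold changes between 0.34 and 0.42, with adjusted p from 0.285 to 0.459. Fzd7 had 298, 244 and 307 in NS control and 252 to 431 in knockdown cells, and Fzd2 had 325, 307 and 334 against 252 to 644. Fzd1 had 168, 207 and 180 against 188 to 360, and its highest value, like that of Fzd2, was on the second knockdown array of set 1. Fzd9 had 120, 65.3 and 135 in NS control and 105 to 166 in knockdown cells, and Fzd8 exceeded the limit on 1 control and 5 knockdown arrays. Fzd3, which with Fzd6 acts in cell polarity and axon guidance, had 292, 231 and 241 in NS control and 159 to 259 in knockdown cells, a log2 fold change of -0.26 (adjusted p = 0.370). Fzd4, also a receptor for the non-Wnt ligand Norrin, and Fzd6 lay near the limit with log2 fold changes of 0.04 and 0.10.

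Of the 10 secreted antagonists, 4 were measured, 1 rose, 3 did not pass, and the median log2 fold change of the 4 was 0.81. Sfrp1, which carries a Frizzled-like domain and binds Wnts outside the cell, had 25.4, 23.7 and 24.2 in NS control cells, 50.5, 65.1 and 38.9 on the first and 99.6, 33.7 and 47.1 on the second knockdown arrays. Every knockdown array lay above the controls, which were within 10 units of the background limit. The mean went from 24.4 ± 0.87 (SD, n = 3) to 55.8 ± 24.0 (SD, n = 6), with a log2 difference of 1.10 (SE 0.29, limma adjusted p = 0.0418), and the within-set differences were 1.48, 0.98 and 0.82. The control SD of 0.87 was below the background SD of 10.3. The second probe of Sfrp1 overlapped, with 13.8 to 37.7 in NS control and 18.7 to 68.7 in knockdown cells, and gave 0.59 (adjusted p = 0.404 over probes). With the mean of both probes the log2 fold change was 0.84 and did not pass (adjusted p = 0.0812). Leaving out NS control 1, 2 or 3, the first knockdown array of set 1 or 2 or the second of set 3 ended the call, at an adjusted p of 0.0603 to 0.121.

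Wif1, a secreted inhibitor that binds Wnts directly, had 78.6, 57.0 and 25.9 in NS control cells, 180, 86.5 and 125 on the first and 183, 64.4 and 82.2 on the second knockdown arrays. Both set 1 knockdown arrays were highest, and the second of set 2 fell below the set 1 control. The log2 fold change of 1.19 did not pass (SE 0.41, limma adjusted p = 0.0954), and was 0.83 without both set 1 knockdown arrays. Sfrp2 had 45.1, 37.0 and 33.2 in NS control and 38.0 to 77.0 in knockdown cells, a log2 fold change of 0.53 (adjusted p = 0.150). Sfrp5 was above the limit on every control array and on 1 knockdown array, with a log2 fold change of -0.31 (adjusted p = 0.530). Dkk1, Dkk2, Dkk3 and Dkk4 of the Dickkopf family, the related Dkkl1 and Sfrp4 were not above background on 3 arrays.

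Of the 7 cytoplasmic components, which relay the signal or hold beta-catenin in check, 5 were measured and 0 passed in either direction, with a median log2 fold change of 0.03. Ctnnb1, which encodes beta-catenin, had 12321, 9760 and 10200 in NS control and 9003 to 12575 in knockdown cells. Its log2 fold change was 0.03 with a 95% interval of -0.27 to 0.34 (limma adjusted p = 0.901), so a change of 2-fold in either direction lies outside the interval. Apc, a scaffold of the destruction complex, had 274, 211 and 248 in NS control cells, 375, 358 and 275 on the first and 435, 437 and 330 on the second knockdown arrays. The lowest knockdown array, at 275.0, was just above the highest control, at 274.4. Its log2 fold change of 0.58 did not pass (SE 0.17, adjusted p = 0.0557), but did without the first knockdown array of set 3 (log2 fold change 0.66, adjusted p = 0.0269). Gsk3b, the kinase that phosphorylates beta-catenin, had 1351, 1679 and 1644 in NS control and 1056 to 1500 in knockdown cells (log2 fold change -0.21, adjusted p = 0.381). Axin1, the scaffold that brings Apc and Gsk3b together, had a log2 fold change of -0.05 (95% interval -0.39 to 0.30), and the Dishevelled gene Dvl1 one of 0.06 (95% interval -0.26 to 0.38). Dvl2 and Dvl3 were not above background on 3 arrays.

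Of the 3 nuclear factors, Lef1 was called lower and both Tcf7l1 and Tcf7l2 did not pass. Lef1, a DNA-binding partner of beta-catenin, had 23.2, 45.7 and 28.2 in NS control cells, 9.7, 13.3 and 4.2 on the first and 16.4, -2.7 and 12.7 on the second knockdown arrays. It was above the limit on all 3 controls and on 0 of the 6 knockdown arrays, so the probe entered the test only through the group where it is high. Its call (limma adjusted p = 0.0117) and its bound of at least 1.83-fold lower in knockdown cells are therefore descriptions. The bound sets the knockdown arrays at the limit of 16.9. With the knockdown arrays of each set averaged the adjusted p of Lef1 was 0.0789. Fitted log2 values of this probe, such as its main one of -0.95, and its call depend on the floor of 16 to which dim values were raised. With a floor of 1 Lef1 did not pass (adjusted p = 0.145). The other Lef1 probe above background pointed the opposite way, with 11.4, 10.1 and 3.8 in NS control and -2.4 to 39.0 in knockdown cells and a log2 fold change of 0.44 (adjusted p = 0.373 over probes). That probe was above the limit on 0 NS control and 3 knockdown arrays, so its direction was likewise built into its choice. Under the strict limit of 24.0 it stands for the gene, again through knockdown arrays only, and Lef1 is not lower (log2 fold change 0.44, adjusted p = 0.316). Tcf7l2, the Tcf factor with wide roles in gut and brain, had 386, 313 and 389 in NS control cells, 577, 560 and 440 on the first and 778, 580 and 412 on the second knockdown arrays. Although the groups did not overlap, the set 3 arrays came close to the controls, and the log2 fold change of 0.60 did not pass (SE 0.20, adjusted p = 0.0805). Its dimmer probe gave 0.15. Tcf7l1, which mostly represses targets in the absence of signal, ranged from 581 to 802 in NS control and from 552 to 693 in knockdown cells (log2 fold change -0.03, 95% interval -0.34 to 0.28).

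Of the 4 feedback genes, which beta-catenin induces to damp its own signal, 2 were measured and 0 passed. Axin2, the target most often read as a sign of beta-catenin activity, had 632, 691 and 488 in NS control cells, 804, 560 and 644 on the first and 728, 661 and 598 on the second knockdown arrays. The groups overlapped over most of their range, with a log2 fold change of 0.15 and a 95% interval of -0.20 to 0.50 (limma adjusted p = 0.591). Nkd1, which binds Dishevelled, had 193, 81.6 and 113 in NS control cells, 101, 69.1 and 62.4 on the first and 82.9, 65.4 and 73.4 on the second knockdown arrays. Each knockdown array but those of set 1 lay below all controls, and the log2 fold change was -0.70 (SE 0.25, adjusted p = 0.105). Rnf43 and Znrf3, which remove Frizzleds from the cell surface, were not above background on 3 arrays.

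The size of the differences varied between sets. Of the 35 genes, 12 were higher and 6 lower in knockdown cells in all 3 sets, while over all genes tested the shares were 26.8% and 24.5%. Lef1 is among those lower, and its direction was built into its choice. Among the 6 members that passed, the differences of Fzd10 and Fzd5 were nearest to each other across sets, within 0.54 to 0.69 and 0.53 to 0.86. Wnt4 had its largest difference in set 1. Lrp5 differed by -1.46 in set 1, -0.10 in set 2 and -1.40 in set 3.

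**Figure D3:**
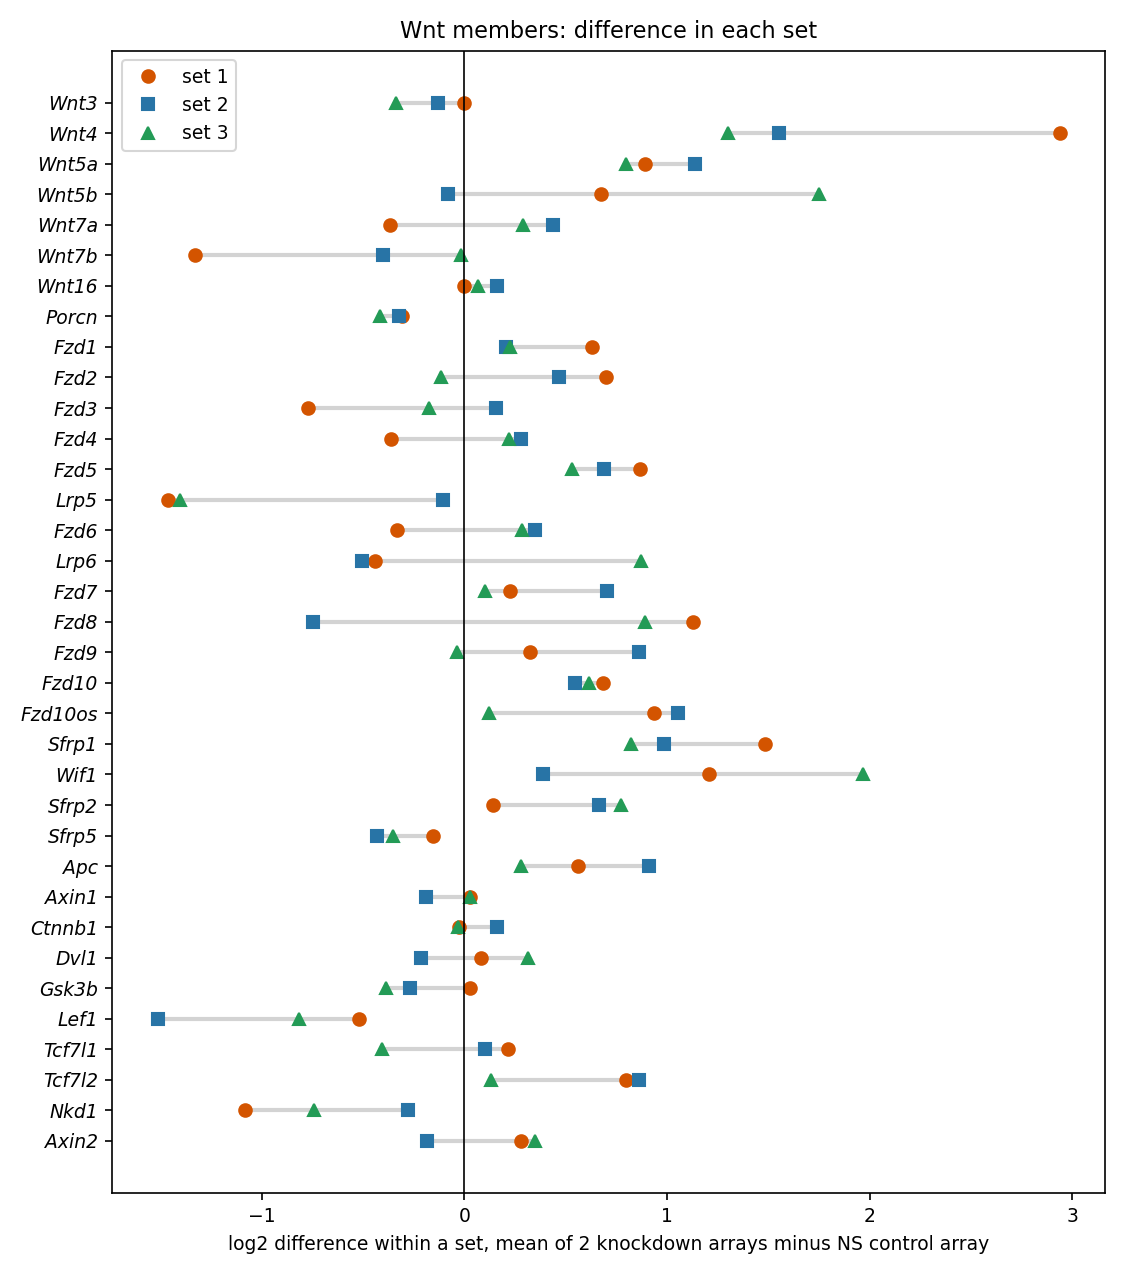
Log2 difference of each tested Wnt gene within each set, the mean of the 2 knockdown arrays minus the NS control array of that set. The grey line joins the lowest and highest set. Wnt4, Fzd5, Fzd10 and Sfrp1 lie above 0 and Lrp5 below 0 in all 3 sets. Lef1 lies below 0 as well, a direction built in because its probe passed the filter only through NS control arrays.

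Several probes above background were available for 16 member genes. Within 12 of them the probes shared a sign, Wnt4, Wnt5a, Wnt7b, Fzd5, Fzd10 and Sfrp1 among them, and within Ctnnb1, Dvl1, Fzd3 and Lef1 they did not. Both Lef1 probes and the dimmest Wnt5a probe passed the filter only through the group where they are high, so their signs were built in. For Fzd3 the probes gave -0.26, -0.17 and 0.20, and for Dvl1 0.06 and -0.21. The 4 Ctnnb1 probes lay between -0.39 and 0.13.

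**Figure D4:**
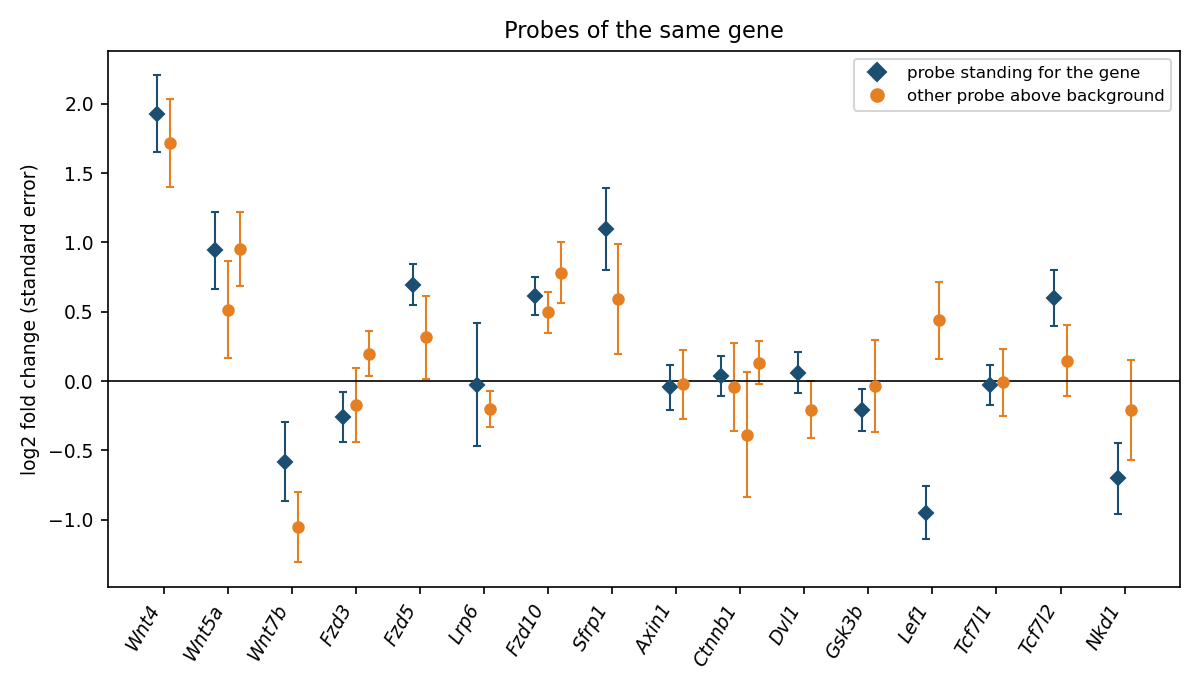
Log2 fold change with its standard error for each probe above background of the 16 Wnt genes that have several. Blue diamonds are the brightest probe, which stands for the gene, and orange points the others. Both Wnt4 probes and all 3 Fzd10 probes are above 0, while the Lef1 probes lie at -0.95 and 0.44. Each Lef1 probe passed the filter only through the group where it is high.

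Genes of the pathway outside the symbol rule were counted by list, to be read beside the 6.56% of all genes tested that were higher and the 3.81% that were lower. With the 2 knockdown arrays of each set averaged, Sostdc1, Tnfrsf19 and Jun of the genes named here passed, while Wls, Celsr2, Prickle2, Daam1, Tle4 and Myc did not (adjusted p = 0.0731 to 0.117). Of 20 Wnt cofactors 11 were measured, 2 rose and 9 did not pass (median log2 fold change 0.25). Wls, the carrier that takes Wnts to the cell surface, had 1144, 939 and 847 in NS control cells, 2422, 1394 and 1655 on the first and 2669, 1925 and 1350 on the second knockdown arrays. The groups did not overlap, and Wls rose by 0.92 on the log2 scale (SE 0.23, limma adjusted p = 0.0336), a call lost without NS control 1, 2 or 3, the first knockdown array of set 1 or the second of set 2 (adjusted p = 0.0542 to 0.128). Sostdc1, a secreted antagonist of BMP that also binds Lrp coreceptors, had 41.0, 116 and 88.0 in NS control and 294 to 547 in knockdown cells. It passed in every alternative setting, and its within-set differences were 3.29, 1.56 and 2.24.

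Of 15 genes of the planar polarity branch, which steers cell orientation and movement, 12 were measured, 3 rose and 9 did not pass (median log2 fold change 0.17). Celsr2, an atypical cadherin at the core of the branch, had 51.2, 91.4 and 48.9 in NS control and 97.8 to 173 in knockdown cells, a log2 fold change of 1.11 (SE 0.25, limma adjusted p = 0.0221). Prickle2, a cytoplasmic core protein, had 326, 275 and 265 against 360 to 691, a log2 fold change of 0.86 (SE 0.21, adjusted p = 0.0280). Daam1, a formin that joins Dishevelled to the actin cytoskeleton, had 952, 677 and 902 against 1150 to 1417, a log2 fold change of 0.63 (SE 0.14, adjusted p = 0.0192). For all 3 the groups did not overlap, where 10.6% of all genes tested had every knockdown array above every NS control array. The 3 were named because they passed the test, so this adds no support. The call of Celsr2 was lost without NS control 1 (adjusted p = 0.0798) or 3 (0.0979), that of Daam1 without NS control 2 (0.0740), and that of Prickle2 without any 1 NS control or the second knockdown array of set 2 (0.0504 to 0.106). With the mean of its probes Daam1 had a log2 fold change of 0.41 and did not pass (adjusted p = 0.0886).

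Of 24 further members of the destruction complex and nuclear cofactors, 19 were measured, 1 rose and 18 did not pass (median log2 fold change 0.00). The 1 was Tle4, a Groucho-type corepressor that binds Tcf factors, with 3717, 3217 and 3129 in NS control and 3817 to 5159 in knockdown cells and a log2 fold change of 0.46 (limma adjusted p = 0.0497). Its call held without the first knockdown array of set 2 and was lost without any other single array (adjusted p = 0.0646 to 0.165). With the mean of its probes Tle4 had a log2 fold change of 0.58 and did not pass (adjusted p = 0.114). Of 24 genes listed as beta-catenin targets, 13 were measured, 1 rose, 2 fell and 10 did not pass (median log2 fold change -0.13). Tnfrsf19, a receptor of the TNF family found on progenitor cells, had 206, 203 and 181 in NS control and 319 to 531 in knockdown cells, a log2 fold change of 1.07 (adjusted p = 0.00285). Myc, a growth-promoting transcription factor, had 204, 277 and 307 against 125 to 194, a log2 fold change of -0.74 (adjusted p = 0.0285), which did not pass without NS control 2 or 3 or without either set 1 knockdown array (adjusted p = 0.0503 to 0.121). Jun, an AP-1 subunit, lay between 408 and 528 in NS control and between 183 and 274 in knockdown cells.

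**Figure D5:**
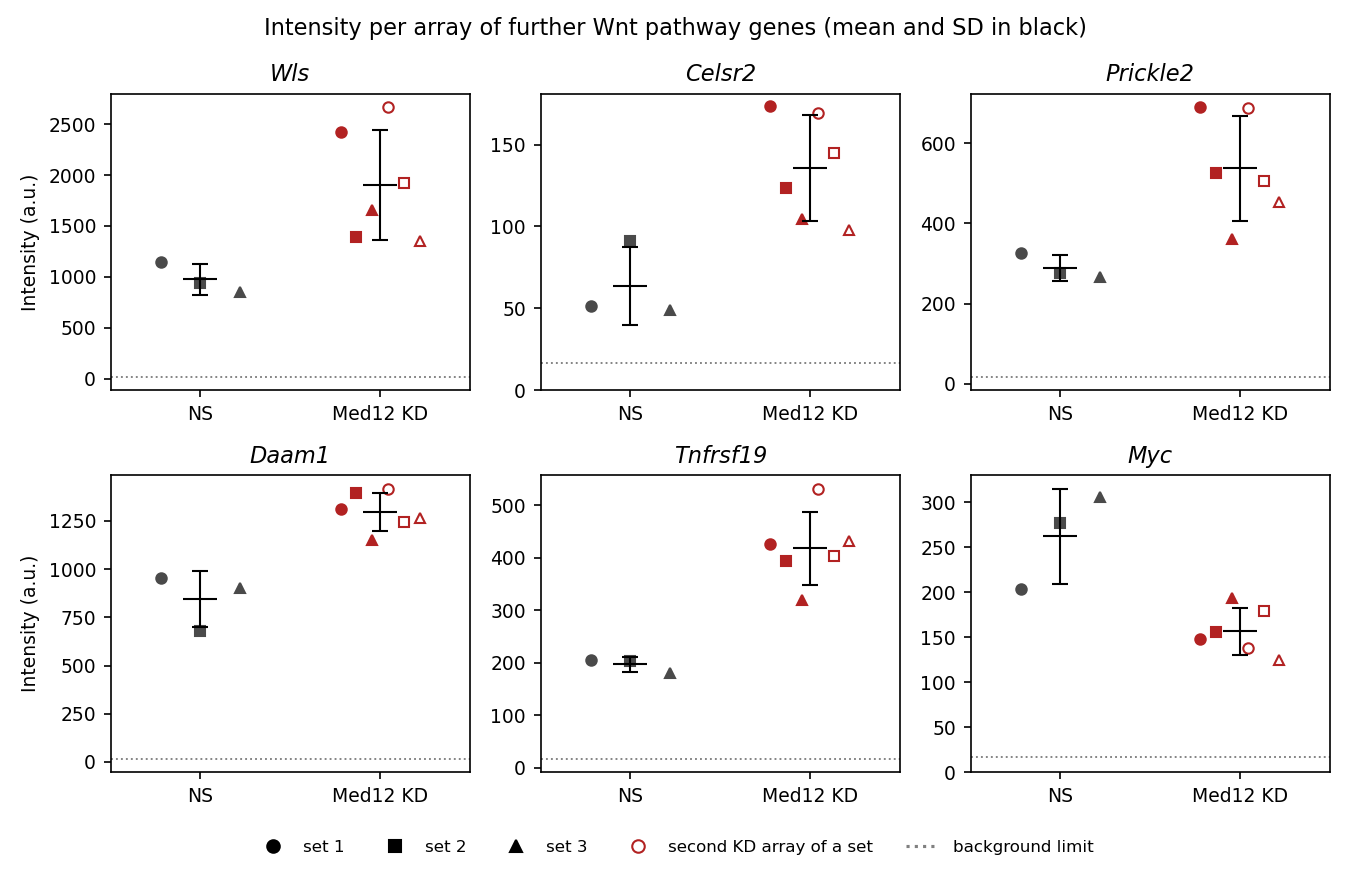
Deposited intensity on each array of 6 pathway genes outside the symbol rule that passed the test, with NS control in grey, Med12 knockdown in red, the set by symbol and the group mean and SD in black. Wls, Celsr2, Prickle2, Daam1 and Tnfrsf19 are higher and Myc lower on every knockdown array than on every NS control array. Over all genes tested, 10.6% were higher and 8.39% lower in this way.

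Set 1 stood apart in several of these genes. Its 2 knockdown arrays held the highest values of Wnt4, Wnt5a, Wif1, Fzd5, Wls and Dcn and the lowest of Wnt7b. Without them Fzd5 had a log2 fold change of 0.58 (limma adjusted p = 0.0228) and Fzd10 of 0.57 (adjusted p = 0.0451). Lef1 has only a bound, so its call in this fit (adjusted p = 0.0401) is again a description. In the same fit Sfrp1 (0.87, adjusted p = 0.0527), Lrp5 (-0.97, adjusted p = 0.0891), Wls (0.69, adjusted p = 0.0518), Celsr2 (0.93, adjusted p = 0.0637), Prickle2 (0.67, adjusted p = 0.0504), Daam1 (0.59, adjusted p = 0.0564), Tle4 (0.41, adjusted p = 0.108) and Myc (-0.68, adjusted p = 0.0826) did not pass. With all arrays the log2 fold changes were 1.10 for Sfrp1, -0.99 for Lrp5, 0.92 for Wls, 1.11 for Celsr2, 0.86 for Prickle2, 0.63 for Daam1, 0.46 for Tle4 and -0.74 for Myc. The fit without set 1 knockdown arrays had fewer arrays, and over all genes it called 535 higher and 260 lower, beside 706 and 410 with all. Whether a lost call reflects the set or the fewer arrays was not tested. The part of the astrocyte, neuron, NSC, pluripotent stem cell and fibroblast markers in these results was not tested.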

How the data were processed

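Total RNA of 9 mNS-5 samples was measured on Illumina MouseWG-6 arrays. The authors background subtracted and quantile normalized the signals in GenomeStudio (version not given in the sources used here) and deposited intensity values on a linear scale, from -35.6 to 53518.1. A table of unnormalized signals was left out because none of its 18 column names could be tied to a sample.

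Values below 0 gave a background SD of 10.3. The limits taken from it were 16.9, and 24.0 as the strict one, which background alone would pass with one-sided probabilities of 0.05 and 0.01. Values below 16 were set to 16 before log2, which understates changes of dim genes. Of the probes, 20026 exceeded the limit on 3 or more arrays, and the brightest of each of 10757 genes represented it. Platform annotation gave 34885 probes 1 symbol, 18 several and 10378 none. Two-sided moderated tests came from limma 3.58.1 (lmFit, then eBayes; R 4.3.3). Their p-values were adjusted by Benjamini-Hochberg across all genes, or across all probes where stated. A gene with no array of a group above the limit has only a bound. The number of arrays limits the precision. Promoters came from RefSeq (GRCm38.p6). Figures used matplotlib 3.10.9 in Python 3.11.15.

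The members and gene lists were chosen with earlier results of these data known. The genes named follow a rule: Med12, members that passed, in each role the 4 brightest and the 2 with the largest change, members whose probes differ in sign, and up to 4 genes per direction that passed in each further list. The remaining members were named after their values were seen. Alternatives covered the floor, the filter, the probe rule, the set as a block, the second knockdown arrays, the variance prior and leaving out arrays. The choice to leave out both set 1 knockdown arrays was made after seeing the data.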

Additional observations from a re-analysis of the deposited data

Results flagged for a closer look

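In 4 of the 35 Wnt genes 1 of the 6 knockdown arrays lay far from the other 5, by a gap of over 0.625 of the group's range on the log2 scale, after values below 16 had been raised to 16. On the deposited intensities all 4 gaps were under that limit, at 0.597 of the range for Gsk3b, 0.162 for Lef1, 0.461 for Sfrp5 and 0.560 for Wnt3. Chance flags about 1 in 20 groups of freely varying values, a rate that does not hold where arrays were raised to 16, as 5 were for Lef1, 5 for Wnt3 and 3 for Sfrp5. The 3 NS control arrays were too few to be checked in this way. Gsk3b was lowest on the first knockdown array of set 3, at 1056.1, with a gap of 0.638 of the log2 range. Sfrp5 was highest on the first knockdown array of set 2, at 36.8, and this was also the highest for Wnt3, at 22.3. Lef1 was highest on the second knockdown array of set 1, at 16.4, which is below the background limit of 16.9, while the other 5 lay under the floor of 16.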

How the results depend on the processing

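The precision of every value is limited by 9 arrays and, for Lef1, Lrp5, Lrp6, Sfrp1, Sfrp5, Wnt3, Wnt16, Fzd4, Fzd6 and Fzd8, by a signal near background. Of 22 alternatives, Wnt4 kept its call in all, Fzd10 lost it in 3, Fzd5 in 5, Lef1 in 5 with 1 reversal, Sfrp1 in 14 and Lrp5 in 17, and 22 of the 29 members that did not pass passed in none. The causes were not tested.

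Members higher (4 in the report) were 2 with the mean of a gene's probes, 7 with a trend and robust variance prior, and 1 with the first or the second knockdown arrays alone. Members lower (2 in the report) were 0 with a floor of 1, with the mean of both knockdown arrays of a set and with the first or second arrays alone, and 1 with 50 added before log2, with no filter, with the strict filter, with every probe on its own and without both set 1 knockdown arrays. Members higher by 2-fold (2 in the report) were 1 with a floor of 1, with 50 added, with no filter, with the mean of probes, with every probe on its own, with the first or second arrays alone and without the set 1 knockdown arrays. Over all genes, 706 higher and 410 lower became 437 higher with no filter, 344 and 164 with the mean of both knockdown arrays, 185 and 60 with the first and 285 and 121 with the second arrays alone, and 260 lower without the set 1 knockdown arrays. Leaving out 1 array at a time gave 2 to 6 members higher, 1 to 2 lower, 1 to 3 higher by 2-fold and 0 to 1 lower by 2-fold (0 in the report), and 373 to 664 genes higher and 169 to 396 lower over all genes.

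With the set number as a replicate block, 8 members were higher and 2 lower: Wnt5a (adjusted p = 0.00498), Apc (0.034), Tcf7l2 (0.045), Wif1 (0.0263) and, lower, Nkd1 (0.0236) passed as well, and Lrp5 (0.0535) did not. In that fit 1137 genes were higher and 751 lower over all. With the set as a random block (correlation 0.220), 9 members were higher, Fzd10os (0.0472) among them, and 1079 and 750 genes over all. Deviations from the group means correlated by 0.026 to 0.305 between NS control and knockdown arrays of a set, and by -0.232 to 0.1 between sets. Since 4 of the 6 pairs of a set were over 0.1 and the others were not, the set number was not used as a pairing in the report. As a hint from the data, 5 of 6 knockdown arrays correlated best with the control of their own number.

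The sign of 9 members reversed in some alternative, all of them other than Lef1 with log2 fold changes between -0.05 and 0.10 in the report. A floor of 1 gave Fzd4 -0.09, Fzd6 -0.04, Lrp6 1.21 and Wnt16 -1.19, and 50 added gave Fzd4 -0.01, Lrp6 0.11 and Wnt16 -0.12. The mean of probes gave Ctnnb1 and Dvl1 -0.07 each, and the strict filter gave Lef1 0.44. The first knockdown arrays alone gave Axin1 0.03 and Lrp6 0.20, the second alone gave Ctnnb1 -0.01, Fzd4 -0.01 and Fzd6 -0.22, and without the set 1 knockdown arrays Ctnnb1 was -0.04. Leaving out 1 array gave -0.16 to 0.03 for Axin1, -0.03 to 0.14 for Ctnnb1, -0.07 to 0.19 for Dvl1, -0.13 to 0.16 for Fzd4, -0.17 to 0.30 for Fzd6, -0.35 to 0.34 for Lrp6, -0.12 to 0.12 for Tcf7l1 and -0.02 to 0.16 for Wnt16. Under the strict filter Sfrp5, Wnt3 and Wnt16 had no probe left and gave no value.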
